A study of Mus musculus with 80 samples.

Results

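The comparison described here is that of liver from mice without food for 30 h with liver from fed mice killed at the same hour, circadian time (CT) 40, in the second active phase after food was withdrawn. Its members are the 4 libraries titled fasted CT40 and the 4 titled control CT40, 8 of the 80 libraries of the series, chosen by title and column name. Each group held 2 male and 2 female C57BL/6J mice (genotype label C57BL/6), 1 library per mouse. All were 8 to 12 weeks old, had eaten standard chow, and had lived under 12 h of light and 12 h of darkness for 10 days before constant darkness from the 11th day. Food was removed from the fasted mice at CT10, and the control mice went on feeding ad libitum. About 40 mg from the left lobe was frozen, polyadenylated RNA was made into stranded libraries, and reads were counted per gene.

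Without incoming glucose, the liver passes from storing to supplying fuel. It releases glucose made from amino acids and glycerol, oxidizes fatty acids that reach it from adipose tissue, and exports part of them as ketone bodies. The nuclear receptor PPARα, glucocorticoids, glucagon acting through cAMP, and FOXO factors that act when insulin is low are known to drive the genes of these pathways, while the SREBP factors drive fatty acid and cholesterol synthesis in the fed state. Mice are nocturnal, so that CT40 lies at a time when a fed mouse eats.

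Total gene counts lay between 26820667 and 53955947 in the 8 libraries, with ribosomal RNA at 0.0597% to 0.188% in 7 of them and at 1.8% in fasted male 1. In 4 of the 8 libraries the detailed labels give another sex than the title, and in 4 another treatment. By their Xist and Ddx3y counts, 8 of 8 had the titled sex. In the deposited exon table, 3 of the 4 fasted CT40 columns matched another fasted CT40 library of the gene table better than the one of the same name, so that table was used for nothing else. One library stood apart. On the first principal component, which held 44.8% of the variance of the 8 libraries, fasted female 2 lay at -135.5, the other fasted libraries between -48.8 and -27.2, and the controls between 58.4 and 66.8. Counts of list members called were recomputed with each library left out, and 22 of 114 moved by over 1.5 times without fasted female 2, 15 without fasted female 1 and 5 to 11 without another library. Values with a library left out are given beside many of the results that moved. Control male 1 was far above the other 7 livers for several acute phase genes.

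Of 21187 genes with enough counts, 8459 differed between fasted and control mice at an adjusted p under 0.05 in edgeR's quasi-likelihood test. They were 3971 higher genes, 18.7% of those tested, and 4488 lower genes, 21.2%, with a median log2 difference (fasted minus control) over all genes of -0.034. A change of at least 2 times was found for 1273 higher and 1960 lower genes. These shares are the background against which each list is set. The 4 fasted values lay wholly above or wholly below the 4 control values for 5653 genes, 26.7% of those tested, of which 5224 were called. Without fasted female 2, 14.5% of 22670 genes were higher and 15% lower. Levels are counts in CPM, a unit that divides by the library's total as scaled by TMM, and are given in the order male 1, male 2, female 1 and female 2. A log2 difference is followed by a standard error (SE), derived as the size of the difference divided by the square root of the F value of its quasi-likelihood test. A gene is said to have risen or fallen only where it passed the test.

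Among genes with a mean log2 CPM of 1 or more and no overlap of the groups, the 8 with the largest rises included genes of lipid handling and of responses to low insulin. Gm15441 (ENSMUSG00000074398.8), a noncoding transcript antisense to Txnip, had 81.1, 87.5, 33.5 and 8.14 CPM in fasted mice and 0.118, 0.159, 0.0434 and 0.0906 CPM in controls. This was the largest of these rises, 8.69 on the log2 scale (SE 0.91, adjusted p = 1.61e-10), or 8.01 without fasted female 1, and the groups were far from overlapping. Txnip itself, which binds thioredoxin and restrains glucose uptake, rose from 63.2, 60.8, 78.3 and 70.2 CPM to 357, 324, 451 and 2407 CPM, a log2 difference of 3.36 (SE 0.41) that was 2.55 without fasted female 2. Whether the counting used the strand is not given in the sources used here, so reads of this overlapping pair may be shared. Fasted female 2 was the lowest of the fasted livers for Gm15441 and the highest for Txnip. Cidec, a lipid droplet protein that enlarges droplets, had 83.9, 99, 158 and 114 CPM against 0.941, 3.16, 0.369 and 0.779 CPM and rose by 6.63 (SE 0.46, adjusted p = 3.01e-15, and 7.24 without control male 2). Cyp4a14, a fatty acid ω-hydroxylase with close relatives among the Cyp4a genes, reached 10015, 10138, 8220.0 and 12913 CPM from 24.8, 28.1, 336 and 509 CPM. The fasted males and females met at one level although control females began above control males, so that the log2 difference was 8.57 in males and 4.65 in females (sex difference -3.93, adjusted p = 0.0158, and -4.29, adjusted p = 0.144, without fasted female 2), and the sex difference did not pass without control male 1, control male 2 or control female 2 either (-4.04 to -3.61). Apoa4, an apolipoprotein of triglyceride-rich particles, had 4828, 4399, 6605 and 11010.1 CPM in fasted mice and 129.8, 136, 335 and 315 CPM in controls, a rise of 4.94 (SE 0.36).

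The rest of these 8 rises were uneven among the fasted mice. Igfbp1, which binds IGF-1 and is known to rise when insulin is low, stood at 544, 353, 104 and 6301 CPM against 52.9, 8.97, 11.5 and 4.26 CPM. Rgs16, a brake on G protein signalling, stood at 102, 72.2, 76.2 and 1082 CPM against 1.03, 1.11, 3.91 and 2.74 CPM. In both, fasted female 2 was more than 10 times above the next fasted mouse, and all 4 fasted values were still above all controls. The log2 difference of Igfbp1 was 6.27 (SE 0.99) and 3.81 without that library (adjusted p = 0.000319), or 7.16 without control male 1, and that of Rgs16 was 6.89 (SE 1.06) and 5.44 (adjusted p = 2.49e-05). Gm48199 (ENSMUSG00000113399.4) rose by 7.38 with all libraries and by 5.29 without fasted female 2, or 8.02 without control female 1. Mt2, a metallothionein with the close relative Mt1, had 57.7, 14.9, 189.9 and 567 CPM against 7.38, 0.557, 3.6 and 1.81 CPM, and its rise was 5.18 with that library and 4.71 without it, 4.54 without fasted male 1 and 6.58 without control male 1.

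**Figure D1:**
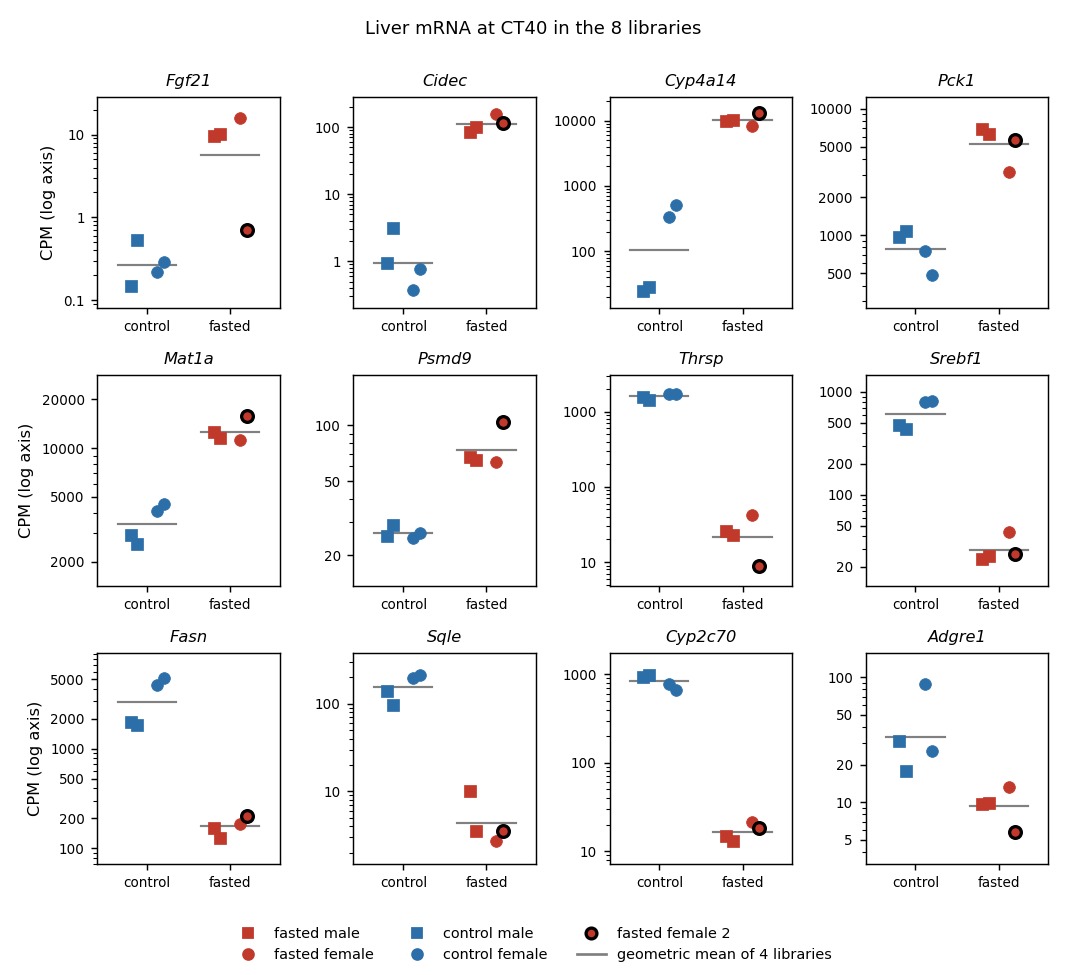
Level in CPM on a log axis of 12 genes in the 4 control (blue) and 4 fasted (red) livers at CT40, 1 point per library, squares for males and circles for females, with the geometric mean of each group as a grey line. The points of the 2 groups are apart for each gene, and fasted female 2 (black ring) lies far below the other fasted mice for Fgf21 (0.7 CPM).

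Under the same 2 conditions, the 8 largest falls included genes of lipid synthesis and sex-biased steroid and bile acid enzymes. Hsd3b5, a hydroxysteroid dehydrogenase of male mouse liver, had 1.31, 0.411, 0.0244 and 0.0737 CPM in fasted mice and 186, 235, 3.65 and 3.7 CPM in controls, and fell by 145 times (log2 -7.18, SE 0.87, adjusted p = 7.48e-09). Control males were more than 50 times above control females, and fasted mice of both sexes were near 1 CPM or below. Thrsp, a promoter of lipogenesis, had 26.1, 22.9, 42.5 and 8.76 CPM against 1539, 1433, 1722 and 1713 CPM (log2 -5.99, SE 0.65, and -6.76 without fasted female 1). Cyp2c70, which makes the muricholic bile acids of mice, had 14.7, 13.1, 21.2 and 18.1 CPM against 944, 978, 786 and 665 CPM, a narrow range on both sides, and a log2 difference of -5.66 (SE 0.27, adjusted p = 2.26e-20). The transcripts Gm56542 and Gm33459 fell by 79.2 and 50.8 times, with log2 differences of -6.31 and -5.67, or -7.24 and -6.67 without fasted female 1. Saa2, an acute phase protein, is among these falls because control male 1 had 5338 CPM. The other controls had 10.3 to 19.4 CPM and the fasted mice 3.05 to 6.89 CPM, and without control male 1 the difference was -1.88 and no longer passed (adjusted p = 0.0988).

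Most genes for burning fatty acids were higher. Of 19 genes of mitochondrial β-oxidation, 16 were higher and 0 lower, with a median log2 difference of 0.90, and 19 were higher without fasted female 2. Cpt1a, which lets long-chain fatty acids into mitochondria, had 1058, 1100.3, 1412 and 1117 CPM in fasted mice and 321, 321, 205 and 239 CPM in controls (log2 2.13, SE 0.16, adjusted p = 3.43e-14). The 4 fasted livers were alike and at least 3 times above every control. Of 13 peroxisomal genes, 9 were higher and 0 lower (median 0.74). Ehhadh, the peroxisomal bifunctional enzyme, rose from 265, 328, 348 and 473 CPM to 2257, 2554, 1639.6 and 1584 CPM (log2 2.50, SE 0.24). Of 8 genes of ω-oxidation, 5 were higher and 1, the alcohol dehydrogenase Adh4, was lower (log2 -1.68, SE 0.19). Of 7 acyl-CoA thioesterases, which free fatty acids from coenzyme A and are partly near-identical copies, 6 were higher and 1 lower (0 lower without fasted female 2, median 2.60). Acot1 had 205, 167, 201 and 205 CPM against 12, 18.5, 27.6 and 39.4 CPM, a log2 difference of 3.10 (SE 0.45).

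Ketone body genes that passed were mostly higher. Of 6 tested, 3 were higher and 1, Slc16a6, lower, with a median of 0.62, or 0.97 without fasted female 2. The fall of Slc16a6 was that of the males, while fasted females had 13.5 and 26.2 CPM and control females 14.7 and 13.8 CPM. Bdh1, which interconverts the 2 ketone bodies, had 209, 259, 308 and 34.7 CPM in fasted mice and 135, 143, 117 and 169 CPM in controls. Its value in fasted female 2 was below every control, while the other 3 fasted livers were above them, and it passed as a rise without that library (log2 0.94, adjusted p = 0.000485) and as a fall without fasted female 1 (-0.64, adjusted p = 0.0182). Ppara, the gene of the receptor, had 267, 245, 253 and 61.9 CPM against 108, 137, 91.8 and 124 CPM, with the same library low (log2 0.80, SE 0.22, and 1.16 without it), and without fasted female 1 it did not pass (0.14, adjusted p = 0.602).

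Secreted factors of the fasted liver were split. Of 12 fasting hepatokine genes tested, 4 were higher and 3 lower. Fgf21, a hormone that acts on adipose tissue and brain, had 9.58, 10.1, 15.9 and 0.7 CPM in fasted mice and 0.147, 0.537, 0.217 and 0.29 CPM in controls (log2 4.89, SE 0.78, adjusted p = 1.97e-06). The other 3 fasted livers were 30 times or more above the mean of the controls, and fasted female 2 was just above the highest control. The difference was 3.11 without fasted female 1 and 5.55 without control male 2. Angptl4, which inhibits lipoprotein lipase, rose from 50.3, 64.7, 30.8 and 27.6 CPM to 344, 322, 232 and 499 CPM (log2 3.09, SE 0.46). Angptl8, its fed-state relative, fell from 35.1, 191, 164 and 183 CPM to 3.93, 3.63, 17.6 and 2.73 CPM (log2 -4.49, SE 0.50, and -5.44 and -3.62 without fasted female 1 and control male 2).

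Most genes for making glucose were higher. Of 13 genes of gluconeogenesis, 10 were higher and 0 lower (median 0.98), and all 10 had groups that did not overlap. Pck1, which commits oxaloacetate to glucose, had 6897, 6304, 3167 and 5664 CPM against 976, 1082, 745 and 483 CPM (log2 2.76, SE 0.26, adjusted p = 1.73e-11). Got1, the cytosolic aspartate aminotransferase, rose most in the list, from 167, 144, 198 and 187 CPM to 1034, 873, 1064 and 3761 CPM, with a log2 difference of 3.13 that was 2.56 without fasted female 2. G6pc1, which releases free glucose, had 630.3, 745, 468 and 475 CPM against 386, 317, 197 and 139 CPM, a smaller difference of 1.23 (SE 0.29). Ppargc1a, a coactivator of these genes, rose by 2.33 (SE 0.35). Of 16 genes of glycolysis and glucose uptake, 7 were lower, 2 higher and 7 did not pass, with a median of -0.23, and 7 were lower and 4 higher without fasted female 2. Pklr, liver pyruvate kinase, had 84.6, 92.3, 68.3 and 55.2 CPM against 229, 656, 534 and 513 CPM, with control male 1 between the groups' other values (log2 -2.70, SE 0.45). Pdk4, which keeps pyruvate out of the citric acid cycle, rose from 6.5, 11.7, 15 and 16.3 CPM to 121, 74.8, 88.2 and 373 CPM (log2 3.65, SE 0.53, and 2.97 without fasted female 2), and 4 of 6 genes of its list were higher, or 2 without fasted female 1.

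Glycogen genes moved in both directions. Of 11, 3 were higher and 5 lower. The subunits that bring protein phosphatase 1 to glycogen did not all move the same way. Ppp1r3g, such a subunit that is known to be induced by fasting, had 17.3, 15.8, 7.43 and 115 CPM in fasted mice and 0.147, 0.0994, 0.217 and 0.0725 CPM in controls (log2 7.91, SE 1.19, adjusted p = 5.56e-07), from near absence in every control, and 6.41 without fasted female 2. Ppp1r3b had 180.3, 148, 196 and 36.4 CPM against 481, 643, 787 and 895 CPM and fell by 4.97 times (log2 -2.31, SE 0.30, and -3.14 without fasted female 1). Ppp1r3c had 27.1, 24.4, 35 and 6.81 CPM against 30.1, 111, 74.5 and 106 CPM, with control male 1 within the fasted range (log2 -1.78, SE 0.50, and -2.59 without fasted female 1). Without control male 2 it did not pass (-1.14, adjusted p = 0.0868).

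Most genes of fatty acid synthesis were lower. Of 17 genes, 15 were lower and 1 higher, with a median log2 difference of -2.08, and 14 had groups that did not overlap. Srebf1, the gene of the factor SREBP-1 that drives this list, had 23.6, 25.6, 43.1 and 26.7 CPM in fasted mice and 475, 436, 799.9 and 816 CPM in controls (log2 -4.37, SE 0.31, adjusted p = 4.58e-15). Fasn, fatty acid synthase, had 161, 126, 175 and 212 CPM against 1862, 1735, 4397 and 5169 CPM (log2 -4.14, SE 0.41). The fasted livers lay close together for Fasn, whereas control females were above control males. Scd1, the Δ9-desaturase that makes oleate, was unlike Fasn in its sexes, at 1294, 1236, 175 and 70.3 CPM against 5387, 9594, 9535 and 16064 CPM. Its log2 difference was -2.57 in males and -6.71 in females (sex difference -4.14, adjusted p = 0.0124, and -3.63, adjusted p = 0.211, without fasted female 2), and the sex difference did not pass without control male 1 (-3.78) or control female 2 (-3.73) either. Pnpla3, a lipase of lipid droplets, had the largest fall of the list, to 0.205, 0.108, 0.269 and 0.0737 CPM from 7.38, 5.37, 62.2 and 60.5 CPM (log2 -6.89, SE 0.71, and -7.53 without fasted female 1). The elongase Elovl5 was the 1 member that rose (log2 0.60, SE 0.22), with overlapping groups, and its call was lost without fasted male 2, fasted female 1, control male 1 or control female 1 (0.46 to 0.55).

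Nearly all genes of cholesterol synthesis fell. Of 23 genes of synthesis and uptake, 22 were lower, 0 higher and 1, Hsd17b7, did not pass, the groups of the 22 did not overlap, and the median was -2.84. Sqle, squalene epoxidase, had 10.2, 3.55, 2.71 and 3.57 CPM in fasted mice and 139.9, 97.4, 194 and 212 CPM in controls (log2 -5.09, SE 0.41, adjusted p = 1.35e-13). Mvd, the last mevalonate enzyme before isoprenoids, had 2.25, 1.15, 1.2 and 0.994 CPM against 51.5, 40.8, 64.3 and 83.5 CPM (log2 -5.44, SE 0.41). In both, fasted female 2 lay with the other fasted mice.

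Stretches of the promoters of these genes are shown because 22 of the 23 fell together. RefSeq promoter sequences of GRCm38.p6, a build older than the GRCm39 of the counts, were matched by symbol for 15 of the 23 genes, and the 250 bases before the start were searched on both strands. All 15 hold CCAAT (or its complement ATTGG), the letters bound by NF-Y, against 37.5% of 27025 genes with any promoter in the table. Hsd17b7, the member that did not pass, is among the 15. A gene with several starts was counted if any of them had a match. The sterol regulatory element TCACNCCAC was found in 1 of 15, Hmgcs1, against 1.22% of all genes. A match is a string of letters and not a measured binding site. Windows of the 5 among the 15 with the largest falls are written 5′ to 3′ on the gene's strand, with CCAAT or ATTGG in capitals, and lie at chr8:122443423-122443484 (minus strand), chr13:8885557-8885605 (plus), chrX:72918466-72918520 (plus), chr5:4104698-4104761 (minus) and chr5:28071162-28071235 (plus).
Mvd: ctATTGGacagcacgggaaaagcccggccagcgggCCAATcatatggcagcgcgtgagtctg
Idi1: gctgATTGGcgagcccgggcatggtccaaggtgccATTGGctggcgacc
Nsdhl: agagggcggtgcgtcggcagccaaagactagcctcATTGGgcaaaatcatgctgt
Cyp51: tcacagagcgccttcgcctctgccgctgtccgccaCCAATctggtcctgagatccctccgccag
Insig1: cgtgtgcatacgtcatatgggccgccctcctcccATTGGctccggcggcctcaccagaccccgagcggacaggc
Idi1, Nsdhl and Cyp51, enzymes of the pathway, had log2 differences of -4.33, -4.23 and -3.54, and Insig1, which holds SREBP back in the endoplasmic reticulum, had -3.49. Idi1 and Insig1 were named for this motif after their values had been seen.

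Genes for storing fatty acids as triglyceride mostly went the other way. Of 20 genes of triglyceride synthesis and lipid droplets, 12 were higher and 3 lower (median 1.14), with Agpat2 as the largest fall (log2 -0.95). The droplet coat genes rose together. Plin2, Plin4 and Plin5 had log2 differences of 1.57 (SE 0.23), 3.81 (SE 0.41) and 1.89 (SE 0.22), each without overlap of the groups. Plin4 showed the widest step, from 6.15, 12.9, 11.1 and 7.19 CPM to 119, 109, 124 and 179 CPM. Lpin1, a phosphatidate phosphatase and coactivator, had 907, 601, 499 and 2645 CPM against 162, 212, 162 and 119 CPM (log2 2.75, SE 0.55, and 1.93 without fasted female 2). G0s2, an inhibitor of the lipase Atgl, had 189, 166, 398 and 4.05 CPM against 23.8, 175, 104 and 128 CPM. Fasted female 2 was below every control and the other 3 fasted livers were at or above 166 CPM, and the gene did not pass with all libraries (log2 0.82, adjusted p = 0.287). It passed as a rise without fasted female 2 (1.32) or control male 2 (1.87) and as a fall without fasted female 1 (-1.99). Of 16 genes of fatty acid uptake and activation, 8 were higher and 7 lower, with a median near 0 (-0.0092), and 6 higher and 4 lower without fasted female 2. Slc27a1, a fatty acid transport protein better known from muscle, rose from 8.03, 8.25, 6.9 and 8.43 CPM to 79.3, 91.5, 91 and 90.1 CPM (log2 3.48, SE 0.24, adjusted p = 2.75e-15), and Acsl3, a fatty acid activating enzyme, fell by 4.47 times (log2 -2.16). Of 17 apolipoprotein and VLDL genes, 6 were higher and 4 lower (7 and 2 without fasted female 2), among them Apoa1 at 1.10 and the cholesterol exporter Abca1 at -0.69.

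**Figure D2:**
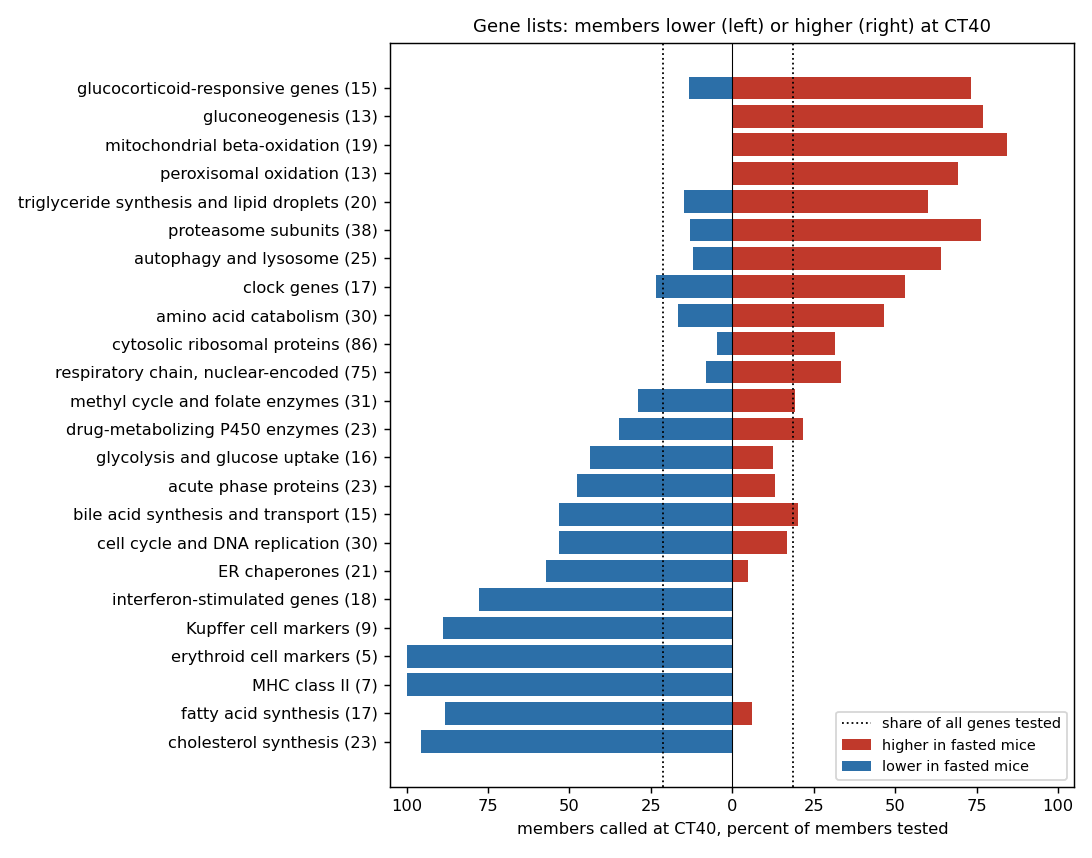
Share of the tested members of 24 gene lists (number tested in brackets) called lower (blue, to the left) or higher (red, to the right) in fasted mice at CT40, in percent of members tested. Dotted lines mark the share over all genes, 21.2% lower and 18.7% higher; cholesterol synthesis (22 of 23 lower) and mitochondrial β-oxidation (16 of 19 higher) lie far outside them, while clock, P450 and methyl cycle genes go both ways.

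Amino acid catabolism was mixed, with more rises than falls. Of 30 genes, 14 were higher and 5 lower (median 0.30), and 14 and 2 without fasted female 2. Tat, tyrosine aminotransferase, had 5107, 4210.0, 2118 and 10630.3 CPM in fasted mice and 1788, 2012, 2993 and 2647 CPM in controls, overlapping groups, and did not pass without fasted female 2 (log2 1.24 with it and 0.46 without it, adjusted p = 0.318). Sds and Sdsl, which break down serine and threonine, rose by 1.49 (SE 0.35) and 2.19 (SE 0.41; 1.5 without fasted female 2). Ido2, a tryptophan dioxygenase, had 97.8, 107, 65.4 and 3.06 CPM against 138, 125, 116 and 117 CPM (log2 -1.06, SE 0.33), with fasted female 2 far below the rest, and -2.79 without fasted female 1. Of 7 urea cycle genes, 4 were higher and 2 lower, or 3 and 1 without fasted female 2, and 1 was lower without control male 2 or control female 2. Asl and Arg1, the last steps that release urea, rose by 1.32 (SE 0.19) and 1.08 (SE 0.18), and Otc, the step that builds citrulline, fell from 413, 473, 404 and 455 CPM to 304, 279, 243 and 81.4 CPM (log2 -1.0, SE 0.17).

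The methyl cycle, which makes S-adenosylmethionine (SAM) and recovers its by-product, showed single strong changes rather than a common one. Of 31 enzymes of the methyl cycle and folate pathways, 6 were higher and 9 lower, near the background shares, with a median of -0.14. Mat1a, the SAM synthase of adult liver, had 12612, 11560.3, 11156 and 15746 CPM in fasted mice and 2905, 2562, 4077 and 4496 CPM in controls (log2 1.90, SE 0.17, adjusted p = 6.62e-12). The 4 fasted livers were above every control by more than 2 times. Ahcy, which removes S-adenosylhomocysteine, rose in a narrow range, with 2799, 2759, 2507 and 2858 CPM against 1331, 1419, 1362 and 1428 CPM (log2 0.98, SE 0.11). Gamt, which uses SAM to make creatine, fell to 56, 49.9, 38.2 and 2.21 CPM from 136, 155, 200.1 and 200.4 CPM (log2 -2.38, SE 0.40), and the difference was -3.97 without fasted female 1 and -1.91 without fasted female 2, its lowest library. Gnmt, Bhmt and Cbs, other abundant enzymes of the cycle, had log2 differences of 0.13 (SE 0.18), 0.47 (SE 0.32) and 0.07 (SE 0.21) and did not pass. Nnmt, which methylates nicotinamide, was above the controls in 4 of 4 fasted livers, 231, 194, 183 and 237 CPM against 169, 86.6, 139 and 116 CPM, but did not pass (log2 0.73, SE 0.40, adjusted p = 0.153).

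Genes of protein breakdown were higher. Of 38 proteasome subunits and activators tested, 29 were higher and 5 lower, with a small median of 0.36, and 30 had groups that did not overlap. Psmd9, an assembly chaperone of the proteasome, had 67.4, 65.1, 63.6 and 104 CPM in fasted mice and 25.3, 29, 24.7 and 26.4 CPM in controls (log2 1.5, SE 0.13, adjusted p = 1.45e-12). Psmb10, a subunit of the immunoproteasome, the form that interferon induces, had 8.47, 12, 10.3 and 5.86 CPM against 33, 22.3, 28.6 and 29.2 CPM (log2 -1.62, SE 0.13). Without fasted female 2 the counts were 30 higher and 4 lower. Of 25 autophagy and lysosome genes, 16 were higher and 3 lower, and 11 higher and 2 lower without that library. Gabarapl1, which coats the autophagosome, had 382, 383, 226 and 313 CPM against 146, 156, 103 and 119 CPM (log2 1.31, SE 0.13). Ulk2, a kinase that starts autophagy, fell by 1.75 times (log2 -0.81, SE 0.14), with overlapping groups.

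Genes of protein synthesis and respiration had medians near that of all genes. Of 86 cytosolic ribosomal protein genes, 27 were higher and 4 lower, with a median of 0.14, with 15 higher and 4 lower without fasted female 2 and 42 higher and 1 lower without fasted female 1. The lower ones were 1 or 2 without fasted male 2 or any control but male 1. Rps28 showed the largest rise, 0.53 (SE 0.10). Of 75 nuclear-encoded respiratory chain genes, 25 were higher and 6 lower (median 0.071), with log2 differences of 0.34 for Cox4i1, a subunit of complex IV, as the largest rise and -0.51 for Ndufs8, of complex I, as the largest fall. These counts were unsteady, with 1 lower without fasted female 2, control male 2 or control female 2, 3 without a fasted male and 10 without fasted female 1, and with 13 and 15 higher without control male 1 and control female 1. Of the 13 encoded by mitochondrial DNA, 2 were higher and 0 lower (1 higher without fasted male 1, fasted female 1, control male 2 or control female 1), and mt-Nd5 rose by 0.57 (SE 0.10). Of 22 ribosome biogenesis genes, 6 were higher and 2 lower with all libraries, 2 higher and 5 lower without fasted female 2, and 10 higher and 0 lower without fasted female 1.

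Falls outnumbered rises among endoplasmic reticulum chaperones, which fold secreted proteins. Of 21 genes of these and of the unfolded protein response, 12 were lower and 1 higher (median -0.49), and 7 were lower without control female 1. Sdf2l1, which works with the chaperone BiP, had 6.55, 6.77, 5.03 and 11 CPM in fasted mice and 26.8, 34.3, 29.6 and 14.2 CPM in controls (log2 -1.83, SE 0.35, adjusted p = 3.21e-05). Hyou1, another of these chaperones, had 133, 129.6, 98.3 and 146 CPM against 239.5, 310.1, 307 and 159 CPM (log2 -1.0, SE 0.24). Hspa5, which encodes BiP, was lower in 3 fasted livers and highest of all 8 in fasted female 2, at 519, 497, 443 and 943 CPM against 670.0, 856, 907 and 549 CPM. It passed only without that library (log2 -0.64, adjusted p = 0.0369). Herpud1, of the degradation arm, was the member that rose, from 217, 289, 199 and 132 CPM to 480.4, 402, 260.5 and 797 CPM, with overlap (log2 1.24, SE 0.27).

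The endoplasmic reticulum stress element, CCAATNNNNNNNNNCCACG, was found in 9 of 19 members with a RefSeq promoter (GRCm38.p6, 250 bases before the start, both strands) and in 0.13% of all 27025 genes. The 3 members that hold it and fell are shown with its fixed letters in capitals, which read CGTGG and ATTGG where the element lies on the other strand. The windows lie at chr15:88819500-88819558 (plus strand), chr12:17266471-17266529 (plus) and chr11:50325780-50325838 (minus).
Creld2: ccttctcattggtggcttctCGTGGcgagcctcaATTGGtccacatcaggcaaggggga
Pdia6: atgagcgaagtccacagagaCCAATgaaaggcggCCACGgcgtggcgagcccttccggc
Canx: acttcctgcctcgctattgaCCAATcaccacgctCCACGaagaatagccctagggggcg
Creld2, Pdia6 and Canx, a chaperone cofactor, a disulfide isomerase and calnexin, had log2 differences of -0.99 (SE 0.31), -0.78 (SE 0.16) and -0.56 (SE 0.08), and Creld2 did not pass without control female 1 (-0.56, adjusted p = 0.2). Pdia6 and Canx were named for it after their values had been seen.

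The integrated stress response, which adapts the cell to amino acid shortage and other stress, depended on fasted female 2. Of 21 genes of the integrated stress response, 8 were higher and 3 lower with all libraries, and 4 higher and 4 lower without it. Trib3, a pseudokinase of this response, had 8.11, 7.96, 9.06 and 20.9 CPM in fasted mice and 1.41, 1.85, 1.3 and 1.36 CPM in controls and rose in either case (log2 2.88 and 2.54). Ddit3 and Asns, classical targets, did not pass, with log2 differences of -0.53 (SE 0.23) and 1.33 (SE 0.90), though Ddit3 passed without fasted female 1 (-0.69). Of 16 NRF2 and glutathione genes tested, 5 were higher and 6 lower. Nqo1, a quinone reductase, reached 11.5, 11.4, 12 and 7.14 CPM from 3.82, 3.28, 9.25 and 9.57 CPM, a rise of 1.69 in males and a difference of 0.029 in females (sex difference -1.66, adjusted p = 0.00714, and -1.35, adjusted p = 0.169, without fasted female 2), and Gstm3, a glutathione transferase, fell by 9.12 times (log2 -3.19).

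Targets of the fasting hormones were divided. Of 15 glucocorticoid-responsive genes, 11 were higher and 2 lower (median 1.6), and 7 higher and 2 lower without fasted female 2. Fkbp5, a cochaperone of the glucocorticoid receptor, had 288, 224, 236 and 422 CPM in fasted mice and 57.2, 45.8, 78.4 and 64.8 CPM in controls (log2 2.25, SE 0.33, adjusted p = 2.59e-07). Tsc22d3, another target, did not pass (log2 -0.49, SE 0.24), and passed as a fall without fasted female 2 (-0.77). Of 17 genes of insulin signalling and FOXO targets, 6 were higher and 4 lower. Irs2, the insulin receptor substrate that FOXO factors induce, rose from 26.8, 16, 22.9 and 17.1 CPM to 87, 84.9, 69.6 and 145 CPM (log2 2.22, SE 0.28), and Pik3r1, a regulatory subunit of the kinase below it, fell by 2.31 times. Of 11 genes of the growth hormone and IGF-1 axis, 1 was higher and 4 lower, or 1 and 2 without fasted female 2. Igfals, which keeps IGF-1 in the blood, had 61.5, 71.4, 63.1 and 7.84 CPM against 171, 137, 204 and 219 CPM (log2 -1.89, SE 0.27, and -2.97 without fasted female 1), and Igfbp2 was the member that rose (log2 1.81, SE 0.22). Igf1 passed with all libraries (log2 -0.49) and not without fasted female 2 (-0.28, adjusted p = 0.267), fasted male 2, control male 1 or control female 2 (-0.47 to -0.44). Of 22 major urinary protein genes, near-identical copies, 0 were higher, 3 lower and 19 did not pass, with a median of -1.40, and 1 was lower without fasted female 2. Of 22 nuclear receptors, 8 were higher and 5 lower, with Nr1i3, the xenobiotic receptor CAR, at 1.30 (SE 0.32).

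Clock genes of the fasted livers had other levels than in fed mice at the same hour. Of 17, 9 were higher and 4 lower. Nr1d1 and Nr1d2, the REV-ERB repressors that peak in the day, were higher, Nr1d1 at 31.8, 22.3, 31.9 and 69 CPM against 11.2, 4.06, 5.97 and 3.93 CPM (log2 2.59, SE 0.33, adjusted p = 1.67e-08) and Nr1d2 at 117, 104, 79.3 and 104 CPM against 48.3, 29.3, 26.6 and 25.9 CPM (log2 1.66, SE 0.16). Bmal1, an activator of the loop that they repress, had 15.1, 14.1, 11.8 and 3.79 CPM against 15.3, 26, 26 and 26.2 CPM (log2 -1.11, SE 0.29), with control male 1 next to the fasted males. The period genes parted. Per1 rose from 31.9, 33.7, 56.6 and 38.1 CPM to 99.7, 79.9, 65.2 and 205 CPM (log2 1.48, SE 0.34), and Per2 fell from 92.9, 80.6, 146 and 124 CPM to 68.7, 59.9, 52.4 and 44.6 CPM (log2 -0.95, SE 0.22). Cry1 did not pass (log2 -0.40, SE 0.20). Of 11 output factors, 4 were higher and 2 lower (4 and 1 without fasted female 2), among them Dbp, a PAR bZIP factor, at 1.78 (SE 0.38), Por, the reductase that serves the P450 enzymes, at 2.09 (SE 0.20), and Bhlhe40 at -1.35 (SE 0.22). At a single time, a shift of phase and a change of level cannot be told apart.

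Bile acid and drug-metabolizing genes moved in both directions, to be set beside shares over all genes of 18.7% higher and 21.2% lower. Of 15 genes of bile acid synthesis and transport, 8 were lower and 3 higher. Cyp7a1, the rate-limiting enzyme of bile acid synthesis, had 8.97, 18.4, 18.4 and 143 CPM in fasted mice and 237, 236, 489 and 369 CPM in controls (log2 -3.26, SE 0.65, adjusted p = 6.54e-05), and -4.30 without fasted female 2, its highest fasted library. Cyp8b1, which decides the share of cholic acid, rose from 328, 465, 239 and 194 CPM to 868, 1076, 814 and 567 CPM (log2 1.48, SE 0.23). Of 23 P450 enzymes of drug metabolism, 5 were higher and 8 lower, or 4 and 5 without fasted female 2. Cyp2b10, a target of CAR, had 9.58, 8.54, 33.7 and 402 CPM against 2.79, 3.06, 31.6 and 51.5 CPM, and its rise of 2.00 was 0.67 and no longer passed without fasted female 2 (adjusted p = 0.362). Cyp2e1, which oxidizes ethanol and ketones, rose from 5185, 4912, 4901 and 4469 CPM to 12192, 12274, 9512 and 6016 CPM (log2 1.0, SE 0.25). Of 19 heme and iron genes, 4 were higher and 7 lower, or 4 and 4 without fasted female 2. Hamp, the hormone hepcidin, did not pass (log2 0.58, SE 0.25) except without fasted female 1 (0.75). Of 15 pericentral and 12 periportal hepatocyte genes, 4 and 5 were higher and 6 and 4 lower. The lower ones were 3 of the pericentral genes without control female 1, and 2 of the periportal genes without fasted male 2, fasted female 2, control male 1 or control female 2. Glul, the marker of the innermost hepatocytes, did not pass (log2 -0.27, SE 0.26).

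Interferon and antigen presentation genes were lower. Of 18 interferon-stimulated genes, 14 were lower and 0 higher (median -1.03), and 14 without fasted female 2. Oasl1, a brake on interferon production, had 3.81, 4.07, 8.45 and 5.41 CPM in fasted mice and 21.8, 15.4, 27.2 and 28.5 CPM in controls (log2 -2.11, SE 0.28, adjusted p = 3.62e-08). Of 7 genes of MHC class II and antigen presentation, 7 were lower (median -1.12). Their master regulator Ciita was at 0.327, 1.04, 1.03 and 0.589 CPM against 3.82, 1.33, 2.15 and 2.28 CPM, and H2-Aa, a chain of the complex, at 13.7, 14.3, 17.2 and 6.78 CPM against 36.1, 20.4, 18.3 and 32.3 CPM (log2 -1.04, SE 0.29), with 6 of the 7 genes lower without fasted female 2, where H2-Aa did not pass (log2 -0.77, adjusted p = 0.054). Of 23 acute phase proteins, 11 were lower and 3 higher, or 5 and 5 without control male 1, and Il1rn, the antagonist of interleukin 1, rose from 1.12, 0.676, 0.608 and 1.43 CPM to 15.8, 10.1, 17.2 and 19.2 CPM (log2 4.00, SE 0.40). Saa1 and Orm2, secreted in inflammation, were at 5824 and 429 CPM in control male 1, far above the other 7 livers.

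The interferon-stimulated response element GAAANNGAAA was found in 6 of 13 members with a RefSeq promoter and in 3.46% of all genes (GRCm38.p6, both strands). Windows of the 3 members that hold it and fell most are shown with the element, which can repeat and overlap, in capitals. They lie on the minus strand at chr4:156200855-156200904, chr8:71537567-71537616 and chr5:120907526-120907559.
Isg15: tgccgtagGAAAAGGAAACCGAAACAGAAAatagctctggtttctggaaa
Bst2: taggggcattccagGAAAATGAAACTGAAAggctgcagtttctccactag
Oas1a: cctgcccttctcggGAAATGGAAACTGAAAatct
Isg15, Bst2 and Oas1a, a ubiquitin-like protein, a tether of virus particles and an RNA sensor, had log2 differences of -1.54 (SE 0.23), -1.54 (SE 0.11) and -1.30 (SE 0.24), and were named for the element after their values had been seen. The same promoters were searched for the letters of other known elements. For glucocorticoid-responsive genes, the receptor's element GNACANNNTGTNC was in 2 of 13 (0.44% of all genes). For clock genes, the E-box CACGTG was in 3 of 12 (6.86%), the D-box TTATGNAA in 2 (3.63%), and the ROR element TAGGTCA and a longer form of it in 0 (2.55% and 0.585%). For β-oxidation, a loose and a strict form of the direct repeat 1, the element of PPARα, were in 0 of 17 (0.4% and 0.0407%). The cAMP element TGACGTCA was in 1 of 10 gluconeogenic genes (1.77%), the FOXO element TGTTTAC in 1 of 13 insulin and FOXO genes (3.54%), and TGATGNAAT, bound by ATF4 with C/EBP, in 1 of 19 integrated stress response genes (0.91%). TGCGCNC, the metal element, was in 3 of 13 heme and iron genes (14%), and TTTGAAA, of cell cycle genes, in 3 of 24 (6.69%). The X box CCCTAGCAA and a spaced form of it were in 0 of 4 MHC class II genes (0.292% and 0.137%), a spaced interferon element in 2 of 13 interferon genes (1.1%), CCACG alone, which the endoplasmic reticulum element contains, in 14 of 19 chaperone genes (31%), and TCACCCCAC, a case of the sterol element, in 1 of 15 cholesterol genes (0.555%).

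Among markers of cells other than hepatocytes, those of Kupffer and erythroid cells were lower most uniformly, and the other lists less so. Of 9 Kupffer cell markers, 8 were lower and 0 higher, and their summed level was 223 to 349 CPM in fasted and 316 to 955 CPM in control livers. Adgre1, the macrophage surface protein F4/80, had 9.74, 9.95, 13.3 and 5.82 CPM against 30.7, 17.9, 87.7 and 25.6 CPM (log2 -1.92, SE 0.26, adjusted p = 5.81e-08, and -1.33 without control female 1), and Clec4f, a lectin of Kupffer cells, 55.5, 58.2, 75.8 and 59.8 CPM against 133, 85.8, 137 and 110.2 CPM (log2 -0.91, SE 0.13). In whole tissue, fewer cells of a type and less RNA per cell cannot be told apart. Of 5 erythroid markers, 5 were lower, with sums of 33 to 99 CPM in fasted and 75.5 to 272 CPM in control livers. Hbb-bs, a globin, had 25.4, 29.9, 23.2 and 19.4 CPM against 82.3, 60.6, 36.7 and 48.5 CPM (log2 -1.18, SE 0.25). Of 8 cholangiocyte markers, 5 were lower (sums 26.4 to 39.8 against 46 to 83.9 CPM; 3 lower without control female 2), and of 6 B cell markers, 3 (4.22 to 14.1 against 11.2 to 19.5 CPM; 1 without fasted female 1). Sinusoidal endothelial markers had 2 higher and 4 lower of 8 (391 to 417 against 413 to 527 CPM), and Stab2, which defines these cells, did not pass (log2 -0.10, SE 0.091). Stellate cell markers had 3 of 8 lower (358 to 641 against 384 to 602 CPM), mesothelial markers 2 of 4 (1.2 to 1.96 against 3.42 to 3.77 CPM), smooth muscle 1 of 4 (4.54 to 9.33 against 6.68 to 12.4 CPM) and T and NK cells 1 of 8 (1.66 to 3.13 against 1.43 to 4.26 CPM). Neutrophil markers had 1 of 6 higher (0.26 to 5.01 against 0.326 to 5.09 CPM), highest in fasted female 2 and control male 1, and the single calls of the smooth muscle, T and NK cell and neutrophil lists were lost without fasted female 2 and without 2 or more of the other libraries. Adipocyte and pancreatic acinar markers stayed under 2 CPM in sum in every library, with 0 of 2 and 1 of 7 called. Hepatocyte markers summed to 99577 to 105777 CPM in fasted and 85054 to 115438 CPM in control livers, with 3 of 8 higher and 3 lower, and Alb did not pass (log2 0.075, SE 0.13). The part of cell numbers in the immune lists was not tested.

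Most proliferation genes that passed were lower in fasted mice. Of 30 cell cycle and replication genes, 16 were lower and 5 higher (median -1.22). Ccnd1, a cyclin of the G1 phase, had 9.29, 9.37, 23.2 and 11.5 CPM against 42.3, 27, 121 and 111 CPM (log2 -2.31, SE 0.32), and Mki67, a marker of dividing cells, 0.368, 0.562, 0.782 and 0.773 CPM against 5.3, 2.51, 5.27 and 5.82 CPM (log2 -2.91, SE 0.53). Among those that rose were inhibitors of the cycle. Cdkn1a, the inhibitor p21, rose from 3.38, 13, 8.51 and 6.9 CPM to 71.5, 51.9, 73 and 91 CPM (log2 3.15, SE 0.51, adjusted p = 2.17e-06, and 3.82 without control male 2), and Gadd45b, a stress sensor, by 3.96 (SE 0.54), or 3.05 without fasted female 2.

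CT16 is the same circadian phase a day earlier, after 6 h without food, and its 8 libraries share none with CT40. The fasting effect at CT40 minus that at CT16 was above 0 for 1058 genes, 4.99% of those tested, and below 0 for 1210, 5.71%. The sum of both, 2268, was 1327 without fasted female 2 and 4194 without fasted female 1, and 1372 to 1902 without another library. Cholesterol synthesis had 17 of 23 genes with a deeper fall at CT40, and its median was -1.43 at CT16 and -2.84 at CT40. Nsdhl, a sterol dehydrogenase, changed by -0.62 at CT16 and -4.23 at CT40 (difference -3.61, SE 0.30, adjusted p = 1.42e-11). Fdps, which makes farnesyl diphosphate, went from -1.24 to -4.81 (difference -3.57, SE 0.35). Cyp51 and Tm7sf2, enzymes further down the pathway, showed differences of -2.72 (SE 0.29) and -1.6 (SE 0.17). Cyp2c70 went from -0.91 after 6 h to -5.66 after 30 h (difference -4.75, SE 0.33, adjusted p = 4.59e-14). Fatty acid synthesis had 11 of 17 genes with a deeper fall, among them Srebf1, at -2.50 and then -4.37 (difference -1.88, SE 0.38).

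Proteasome genes were near their controls at CT16. Of the 38 genes, 29 had a higher effect at CT40 than at CT16 and 2 a lower one, and the median went from -0.0385 to 0.36. Of the 5 genes with the smallest p for a higher effect at CT40, Apoa4 went from 1.38 to 4.94 (difference 3.56, SE 0.44, adjusted p = 4.16e-07). The differences of the other four were smaller. Mtx3, a mitochondrial outer membrane protein, differed by 1.27 (SE 0.15), Srxn1, a reductase of oxidized peroxiredoxins, by 1.47 (SE 0.20), Krba1 by 0.97 (SE 0.13) and Slc48a1, a heme transporter, by 0.69 (SE 0.10). Kupffer cell markers had 8 of 9, erythroid markers 5 of 5 and MHC class II genes 5 of 7 members with a lower effect at CT40, and the medians at CT16 were 0.10, 0.15 and 0.30. Interferon-stimulated genes had 6 of 18. Among lists of fuel supply, gluconeogenesis had 0 genes with a higher and 1 with a lower effect than at CT16, β-oxidation 6 of 19 with a higher and 0 with a lower one, and ω-oxidation 3 of 8 with a higher and 1 with a lower one. Pck1 had 2.23 at CT16 and 2.76 at CT40 (difference 0.53, SE 0.35), which did not pass.

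**Figure D3:**
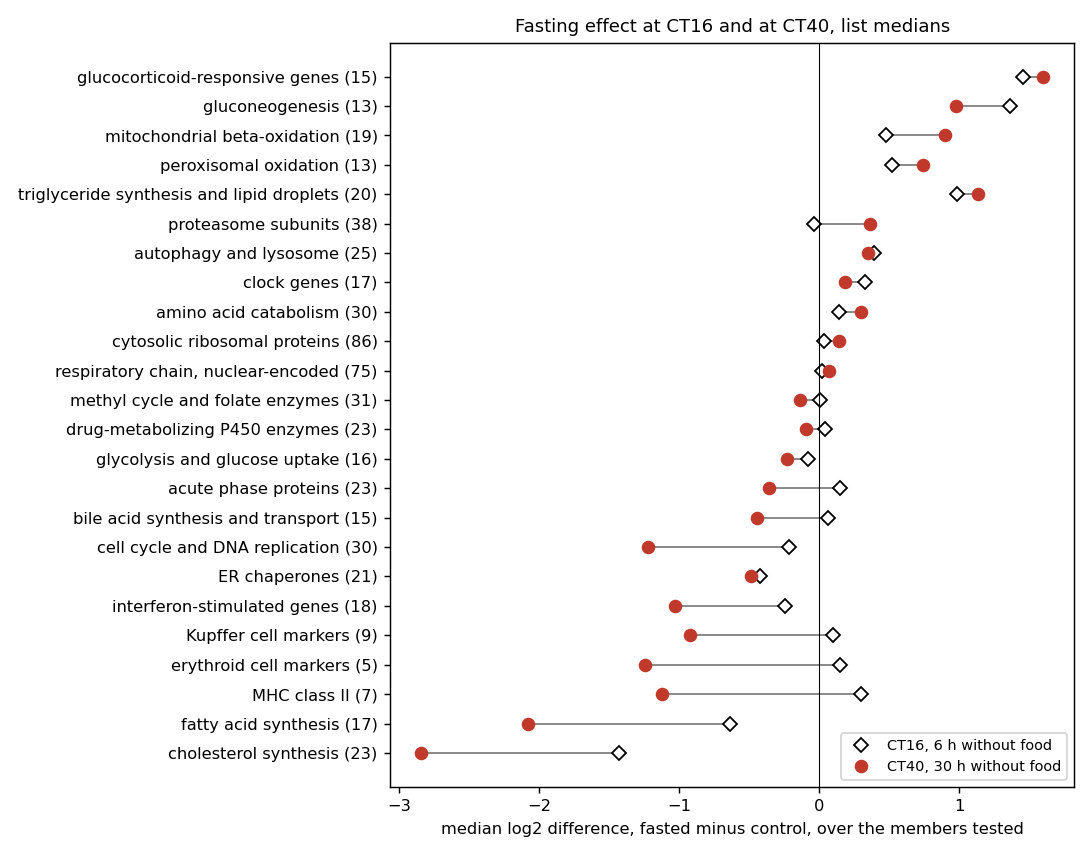
Median log2 difference (fasted minus control) over the tested members of 24 gene lists (number tested in brackets) at CT16, after 6 h without food (open diamonds), and at CT40, after 30 h (red circles), joined by a line. Cholesterol synthesis moves from -1.43 to -2.84 and the proteasome from -0.0385 to 0.36. The median of gluconeogenesis is no higher at CT40 (1.36 and 0.98), although the median of its differences per gene, CT40 minus CT16, was 0.13.

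The effect at CT40 was also tested against those of the neighbouring times. It differed from the effect at CT36, after 26 h, for 333 genes, 1.57% of those tested, or 54 without fasted female 2, 2764 without fasted female 1 and 115 to 224 without another library. Of the 5 with the smallest p, Nr1d2 had 0.11 at CT36 and 1.66 at CT40 (difference 1.54, SE 0.22, adjusted p = 0.00013). Prkaca, the catalytic subunit of protein kinase A, and Actb, β-actin, had -0.0016 and 0.077 at CT36 and fell at CT40, with differences of -0.82 (SE 0.12) and -1.26 (SE 0.19). Ppard, a nuclear receptor, had -0.13 at CT36 and fell at CT40 (difference -1.57, SE 0.25), and Gm38455 had 0.78 and 3.04 (difference 2.26, SE 0.34). Pck1 was among the genes that passed, with 0.92 at CT36 and 2.76 at CT40 (adjusted p = 0.00422). From the effect at CT44, after 34 h, 11 genes differed, 0.0519% of those tested, and 1732 had an unadjusted p under 0.05. Without fasted female 1 there were 362, without fasted female 2 there were 14, and without another library 2 to 8. The smallest p were those of Mtmr14, a phosphoinositide phosphatase (0.70 at CT40, difference 0.65, SE 0.10), Alpl, alkaline phosphatase (0.35, difference -1.10, SE 0.18), and Rassf6 (-1.43, difference -1.21, SE 0.23). Next were the chaperone Hspa8 (-0.014 at CT40, difference -1.42, SE 0.29) and the cap-binding protein Eif4e (-0.24, difference -0.43, SE 0.088). A negative difference is a lower effect than at CT44 and need not be a fall at CT40. Eif4e lost its call in 6 of the 8 recounts with a library left out (fasted female 2 at -0.37, adjusted p = 0.085), Hspa8 in 5 and Rassf6 in 4.

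Males and females were fed and fasted alike, and their responses at CT40 were compared as a difference of differences, with 2 mice per sex and group. It passed for 1255 genes, 5.92% of those tested, with the female effect above the male one for 711 (3.36%) and below it for 544 (2.57%). These counts rest on fasted female 2. Without that library 12 genes passed, without fasted female 1 it was 4451, and without another library 318 to 623. Of the 1255 genes, 53 were called in both sexes with opposite signs, 107 in both with one sign, 895 in females only and 162 in males only.

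**Figure D4:**
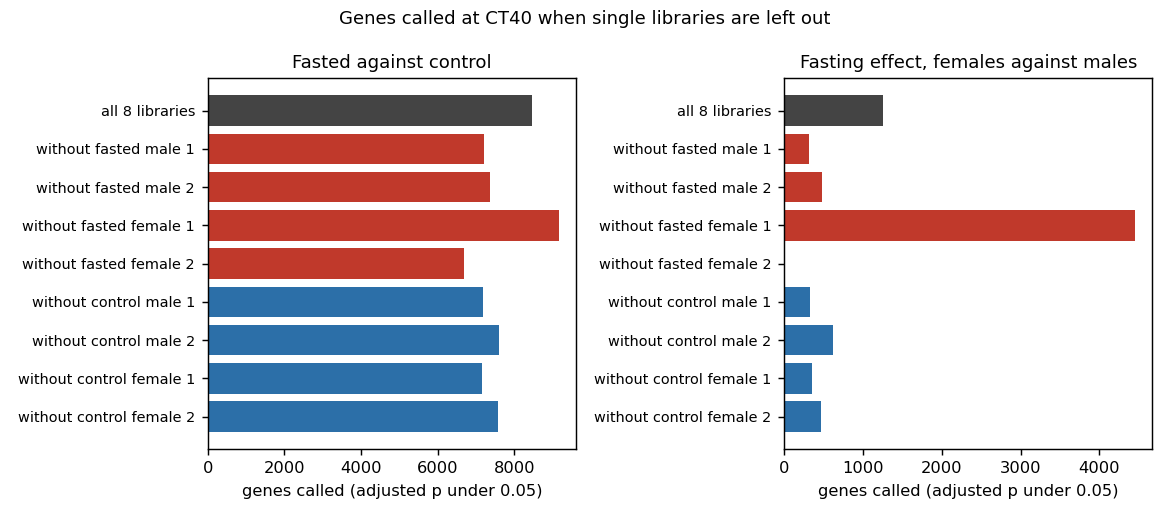
Number of genes called at an adjusted p under 0.05 with all 8 CT40 libraries (dark bar) and when each fasted (red) or control (blue) library is left out, for fasted against control mice (left) and for the difference between the sexes (right). The fasting count stays between 6685 and 9163, while the sex count ranges from 12 to 4451, the ends being set by fasted females 2 and 1.

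Temperature-responsive genes differed between the sexes. Of 12 heat shock and cold-inducible genes, 3 were higher and 3 lower over both sexes (1 lower without fasted male 2, fasted female 2, control male 2 or control female 1), 6 differed between the sexes, 5 with a lower and 1 with a higher effect in females, and the median was 0.45 in males and -1.0 in females. Hsph1, a large heat shock protein, had 114, 104, 53.4 and 18.2 CPM in fasted mice and 77.7, 88.1, 166 and 126 CPM in controls. Both fasted females were below both fasted males, whereas control females were above control males (difference -2.41, SE 0.63, adjusted p = 0.0181). Hspa1b, an inducible heat shock protein with a near-identical copy, was at 19.9, 13.2, 2.56 and 1.99 CPM against 5.24, 10.7, 19.5 and 13.2 CPM (difference -3.86, SE 1.11). Cirbp, an RNA-binding protein known to be induced by cold, went the other way, at 12.4, 14.9, 37.5 and 62.3 CPM against 14.1, 9.01, 7.73 and 9.4 CPM, with both fasted females above every other liver (difference 2.29, SE 0.43, adjusted p = 0.0028). Rbm3, a cold-induced relative, was above the controls in all 4 fasted livers and did not differ by sex at the threshold (log2 0.80, SE 0.15; sex difference 0.23, SE 0.29). Without fasted female 2 the differences were -1.85 for Hsph1, -3.71 for Hspa1b and 1.87 for Cirbp, with adjusted p of 0.294, 0.257 and 0.0942, and female 1 was then the 1 fasted female. Hsph1 also lost this call without fasted male 1, control male 1, control male 2 or control female 1, and Hspa1b without any 1 library but fasted female 1. Body temperature was not analysed here.

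By the test of the sex difference, the leading 5 genes were Slc41a1, a magnesium transporter, P4ha1, a collagen prolyl hydroxylase, Slc16a6, a carrier that exports ketone bodies, Atg2a, a lipid carrier of autophagy, and Zfp874b. Slc16a6 fell in males and did not pass in females, at 2.7, 3.07, 13.5 and 26.2 CPM against 16.5, 13.9, 14.7 and 13.8 CPM, with the fasted males about 5 times below their controls (difference 2.86, SE 0.45, adjusted p = 0.000816). Slc41a1 had 3.56, 3.59, 6.84 and 18.5 CPM against 10.3, 8.73, 5.04 and 5.45 CPM (difference 2.67, SE 0.39), with a fall in males and a rise in females. P4ha1 and Zfp874b had lower effects in females, by -2.39 (SE 0.37) and -1.67 (SE 0.28). Atg2a rose in both sexes, by 0.64 in males and 2.58 in females (difference 1.94, SE 0.31). Without fasted female 2, Slc41a1, P4ha1 and Slc16a6 still passed and the others did not. The differences were then 1.79, -2.41, 2.30, 1.14 and -1.32 in the order named, with adjusted p of 0.0235, 0.0138, 0.0244, 0.0942 and 0.0561. Of 22 ribosome biogenesis genes, 11 had a higher effect in females and 0 a lower one with all libraries. Nop56, a box C/D particle protein, had 16.9, 15.1, 22.3 and 43.4 CPM against 27.4, 33.3, 23.1 and 19.8 CPM (difference 1.53, SE 0.36, and 0.98 without fasted female 2), with fasted female 2 the highest of the 8, and it did not pass without that library, fasted male 2 or control female 2. P450 enzymes had 4 of 23 with a lower effect in females, and acute phase proteins 4 of 23 with a higher one, a list in which control male 1 was high. Sex counts of lists, those of heat shock and cold-inducible genes included, were not recomputed without fasted female 2, on which the count over all genes rests.

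**Figure D5:**
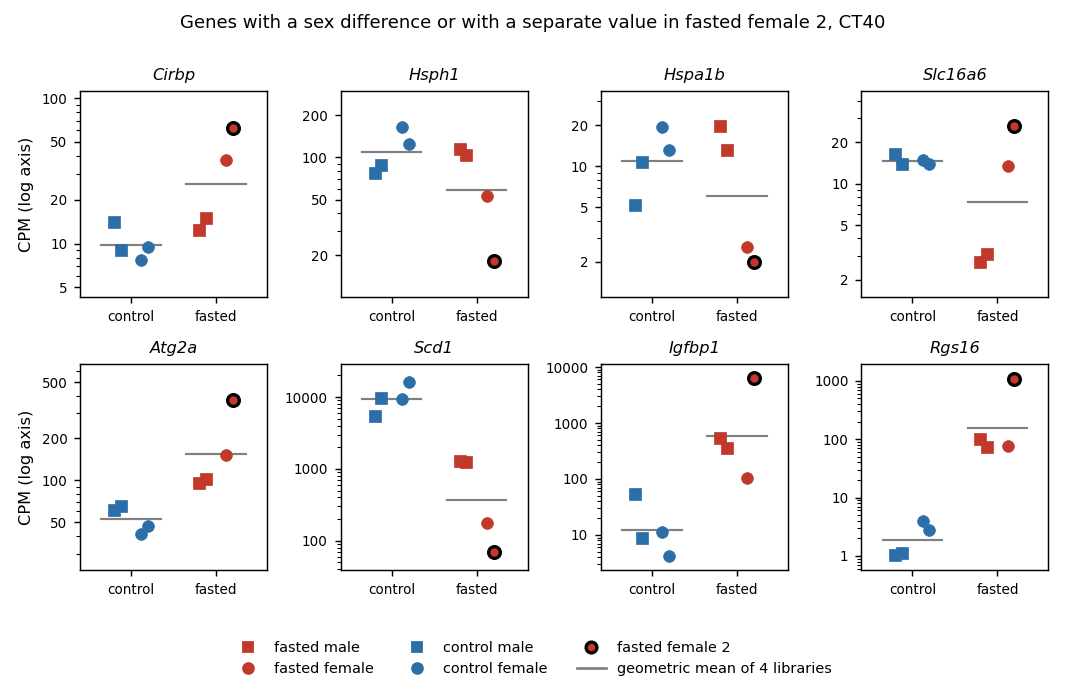
Level in CPM on a log axis of 8 genes in the 4 control (blue) and 4 fasted (red) livers at CT40, squares for males and circles for females, with group geometric means in grey. Fasted female 2 (black ring) is at the end of the fasted values in each panel, the other fasted female lies on the same side of the fasted males as it for Cirbp, Hsph1, Hspa1b, Slc16a6, Atg2a and Scd1, and for Igfbp1 and Rgs16 fasted female 2 alone is high (6301 and 1082 CPM).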

How the data were processed

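RNA of 80 mouse livers was measured, and 8 libraries, fasted and control at CT40, are described here. The authors deposited raw counts per gene, which were used as deposited, raw counts per exon bin, which were used only to match columns, and a normalised table, which was not used. Per the submitters' processing notes, reads were treated with Trimmomatic, HISAT2 and DESeq2 on GRCm39, without versions. The counting program and its strand setting are not given in the sources used here. The article given with the series is a review without methods, so it gave no tests. Titles and column names gave the groups, 0 columns of the gene table were left unmapped, and the detailed labels, which disagree with them, were not used. The 2 males and 2 females of each group were separate mice.

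In R 4.3.3, edgeR 4.0.16 was fitted to all 80 libraries (25534901 to 59927771 counts each) with a mean per treatment, time and sex, so that all groups share one estimate of the spread, and the sexes were weighted equally. Scaling was by TMM, filterByExpr kept 21187 of 78275 genes, and the quasi-likelihood test was adjusted by Benjamini-Hochberg over all genes tested, with calls under 0.05. CPM use the TMM-scaled library sizes, and log2 CPM for the principal components a prior count of 2. Differences between times and sexes were tested as interactions in the same fit. DESeq2 1.42.0 and limma 3.58.1 (voom) served as alternatives, beside other scalings and filters, a 1.5-fold minimum, an adjusted p of 0.01, no sex, a replicate block, CT40 alone, each sex alone and each CT40 library left out. Simulated data held 200 genes changed in both sexes and 200 others changed in females only, among 20633 tested. The fit recovered 83% of the former at a log2 change of 1 for fasted against control. It recovered 64%, 64.5% and 63% against CT16, CT36 and CT44, and 74% at a log2 change of 2 between the sexes. False calls numbered 21, 8, 20, 13 and 10 in that order. All simulated libraries of a gene had one spread, so none stood apart as fasted female 2 did, and the rates do not cover that case. Far fewer genes were changed than were called in the data, and genes of the lowest levels were not picked, which the rates do not cover either.

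The members, 44 gene lists and 13 marker lists were chosen with earlier results of these data known. Genes were named by one rule: known leading genes of each list; the called member with the largest rise and largest fall of each list; the 8 largest rises and 8 largest falls among called genes whose groups did not overlap and whose mean log2 CPM was 1 or more; the 5 smallest p in each direction against CT16; and the 5 smallest p against CT36, against CT44 and between the sexes. Hsd17b7 and genes named for their promoters lie outside it, and some genes it names are not reported here. Promoter sequences came from RefSeq (GRCm38.p6), where 21 motifs were searched.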

Additional observations from a re-analysis of the deposited data

Results flagged for a closer look

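In the groups of 4 libraries, 1 library lay far from the other 3 in 44 of the 286 groups tested for the genes named here, by Dixon's ratio of its gap to the group's range above the 95% critical value. Chance flags about 1 in 20 groups, and genes are not independent, so the counts per library are a description. Fasted female 2 was the separate library in 24 of them, control male 1 in 8, fasted female 1 in 6, fasted male 1 in 3, control male 2 in 2 and fasted male 2 in 1.

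Fasted female 2 was above the rest of its group for Asl (2588 CPM, others 1732 to 1874), Cyp2b10 (402 CPM, others 8.54 to 33.7), Cyp7a1 (143 CPM, others 8.97 to 18.4), Gadd45b (51.7 CPM, others 8.28 to 13.6), Glul (905 CPM, others 669 to 706), Got1 (3761 CPM, others 873 to 1064), Hspa5 (943 CPM, others 443 to 519) and Igfbp1 (6301 CPM, others 104 to 544). It was also above them for Pdk4 (373 CPM, others 74.8 to 121), Por (2689 CPM, others 1420.0 to 1536), Ppargc1a (91.3 CPM, others 42 to 45.3), Ppp1r3g (115 CPM, others 7.43 to 17.3), Psmd9 (104 CPM, others 63.6 to 67.4), Rgs16 (1082 CPM, others 72.2 to 102), Sds (456 CPM, others 312 to 335) and Sdsl (86.9 CPM, others 20.1 to 26.8). It was also above them for Trib3 (20.9 CPM, others 7.96 to 9.06) and Txnip (2407 CPM, others 324 to 451). Fasted female 2 was below the rest of its group for Igfals (7.84 CPM, others 61.5 to 71.4), Ndufs8 (29.9 CPM, others 46.1 to 47.4), Nqo1 (7.14 CPM, others 11.4 to 12), Pik3r1 (34.7 CPM, others 51.4 to 54.5), Ppara (61.9 CPM, others 245 to 267) and Prkaca (25.8 CPM, others 39.8 to 40.5).

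Control male 1 was above the rest of its group for Dbp (14.7 CPM, others 5.95 to 6.45), Igfbp1 (52.9 CPM, others 4.26 to 11.5), Nr1d2 (48.3 CPM, others 25.9 to 29.3), Orm2 (429 CPM, others 7.24 to 16.7), Saa1 (5824 CPM, others 20 to 79.4) and Saa2 (5338 CPM, others 10.3 to 19.4). Control male 1 was below the rest of its group for Bhlhe40 (115 CPM, others 176 to 187) and Bmal1 (15.3 CPM, others 26 to 26.2). Fasted female 1 was above the rest of its group for Angptl8 (17.6 CPM, others 2.73 to 3.93), Ccnd1 (23.2 CPM, others 9.29 to 11.5), Cpt1a (1412 CPM, others 1058 to 1117), Saa2 (6.89 CPM, others 3.05 to 3.68) and Srebf1 (43.1 CPM, others 23.6 to 26.7). Fasted female 1 was below the rest of its group for Creld2 (18.7 CPM, others 25.5 to 26.3). Fasted male 1 was above the rest of its group for Mvd (2.25 CPM, others 0.994 to 1.2) and Sqle (10.2 CPM, others 2.71 to 3.57). Fasted male 1 was below the rest of its group for Slc27a1 (79.3 CPM, others 90.1 to 91.5). Fasted male 2 was below the rest of its group for Acot1 (167 CPM, others 201 to 205). Control male 2 was below the rest of its group for Insig1 (493 CPM, others 658 to 676) and Mki67 (2.51 CPM, others 5.27 to 5.82).

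Other results were picked because the fasting effect differed between times or sexes by a test of the difference itself. The number of genes was 2268 against CT16, 333 against CT36, 11 against CT44 and 1255 between the sexes. The log2 difference of effects (CT40 minus CT16) was -3.61 for Nsdhl, -3.57 for Fdps, -2.72 for Cyp51, -1.60 for Tm7sf2, -4.75 for Cyp2c70, -1.88 for Srebf1, 3.56 for Apoa4, 1.27 for Mtx3, 1.47 for Srxn1, 0.97 for Krba1 and 0.69 for Slc48a1. The log2 difference of effects (CT40 minus CT36) was 1.54 for Nr1d2, -0.82 for Prkaca, -1.26 for Actb, -1.57 for Ppard, 2.26 for Gm38455 and 1.84 for Pck1. The log2 difference of effects (CT40 minus CT44) was 0.65 for Mtmr14, -1.10 for Alpl, -1.21 for Rassf6, -1.42 for Hspa8 and -0.43 for Eif4e. The log2 difference of effects (female minus male) was -3.93 for Cyp4a14, -4.14 for Scd1, -1.66 for Nqo1, -2.41 for Hsph1, -3.86 for Hspa1b, 2.29 for Cirbp, 2.67 for Slc41a1, -2.39 for P4ha1, 2.86 for Slc16a6, 1.94 for Atg2a, -1.67 for Zfp874b and 1.53 for Nop56.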

How the results depend on the processing

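Numbers of called genes depended on the settings in 44 of 88 recounts, where they moved by over 1.5 times, and the cause was not tested. For fasted against control (8459), the count was 2541 with a change of at least 1.5 times, 4442 with the CT40 libraries alone and 4109 in males alone. Against CT16 (2268) it was 157 with the 1.5-fold minimum, 862 without sex in the model and 843 at an adjusted p under 0.01. Against CT36 (333) the same settings gave 2, 76 and 69, and no filter on low counts gave 1071. Against CT44 (11) they gave 0, 1 and 2, no filter gave 438, and a filter of 1 CPM in 4 libraries gave 27. Limma voom gave 8 and DESeq2 size factors 10 genes against CT44, where edgeR's quasi-likelihood test had 1732 at an unadjusted p under 0.05. Between the sexes (1255) the 1.5-fold minimum gave 29 and an adjusted p under 0.01 gave 288.

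Leaving out 1 library at a time gave 6685 to 9163 genes for fasted against control, 1327 to 4194 against CT16, 54 to 2764 against CT36, 2 to 362 against CT44 and 12 to 4451 between the sexes. The lowest counts were those without fasted female 2, except against CT44, and the highest those without fasted female 1, which leaves fasted female 2 as the 1 fasted female, assumed to vary like the other groups.

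With a replicate block within time and sex, the counts were 7855, 1823, 159, 2 and 867 in the same order. Whether the numbers pair the mice was not settled. The deviations of same-numbered fasted and control mice at CT40 had correlations of -0.0276 in males and -0.0383 in females. With 2 mice per treatment and sex the deviations mirror each other, so there is 1 value per sex, which cannot exclude a pairing.

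Of 2546 recomputed effects of named genes, 2448 kept their direction and their side of the threshold, 64 lost and 27 gained a call, and 7 changed sign. These were Alb without control male 1 (-0.012, the lowest of -0.012 to 0.21 over single libraries left out) and in females (-0.16), Bdh1 (-0.64 to 0.94) and G0s2 (-1.99 to 1.87) without fasted female 1, Cry1 in males (0.095), and Gnmt (-0.18) and Hsd17b7 (0.018) in females. Of 527 recomputed differences between effects, 475 kept both, 52 lost their call and 0 changed sign. The effect of depth on the calls was not tested. Many named genes had libraries under 1 CPM, where a fold rests on few counts. They included Gm15441, Hsd3b5, Ppp1r3g, Pnpla3, Cidec, Fgf21, Mt2, Gm48199, Gm33459, Gm56542, Asns, Gadd45b, Il1rn, Ciita, Isg15, Mvd and Mki67.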
